A study of Homo sapiens with 6 samples.

Results

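The cytosolic ribosomal protein genes were taken as the protein-coding genes whose symbol is RPL or RPS followed by a number, with an optional A or X, together with RPLP0, RPLP1, RPLP2, RPSA, RPL22L1 and FAU. Pseudogenes were left out, and a gene was to be dropped if its mean level was under 1 CPM, the count scaled by library size. The rule found 79 genes among the 58302 in the table, and none was dropped. Of these, 47 encode proteins of the large subunit or its paralog RPL22L1, and 32 encode proteins of the small subunit.

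RNA was sequenced from HCT116, an established human colorectal cancer cell line, transfected transiently with either a negative control siRNA (si-NC) or an siRNA that targets SLCO1B3 (si-SLCO1B3). SLCO1B3 encodes a membrane transporter of organic anions, and the comparison asks how the transcriptome differs when it is silenced. Each group held 3 libraries, numbered 1, 3 and 5 in both groups. The sample labels give a different siRNA sequence to each si-SLCO1B3 library and the same control sequence to every si-NC library, whereas the study's methods list several siRNAs against SLCO1B3 and name only one of them for expression profiling, so siRNA and library number cannot be told apart within the silenced group. The paper reports that si1-SLCO1B3 and si2-SLCO1B3 lowered SLCO1B3 in these cells, whereas si3-SLCO1B3 did not. The labels do not say what the library numbers mark, so equal silencing in every si-SLCO1B3 library cannot be assumed. Nothing states that the libraries came from separate cultures, so p-values measure only the spread between these libraries, which may be technical.

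The libraries held between 17290442 and 21278903 counts. SLCO1B3 was at 8.88, 14.2 and 20.7 CPM in si-NC libraries 1, 3 and 5 and at 5.86, 9.16 and 3.15 CPM in the si-SLCO1B3 libraries. Its groups overlapped, because si-SLCO1B3 library 3 was above si-NC library 1, and its log2 fold change was -1.27 ± 0.43 (SE), with an adjusted p of 0.9998 (edgeR, quasi-likelihood F test, Benjamini-Hochberg over all genes tested). Of 7 epithelial markers, 6 were tested, with keratin genes KRT8 and KRT19 the highest, and VIL1 was near 0. The markers of other cells (VIM, COL1A1, COL1A2, PECAM1, PTPRC and ALB) summed to 115 to 195 CPM in the controls and 98.0 to 134 CPM in the silenced libraries. ALB was near 0, the other 5 had lower fitted values in si-SLCO1B3, and their part in the results below was not tested.

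Ribosomal proteins coat the ribosomal RNA of the small and large subunits and are made in near-equal amounts. In vertebrates most of their mRNAs begin with a C followed by a run of pyrimidines, the terminal oligopyrimidine (TOP) motif, through which translation of the whole family is tied to growth signalling by mTORC1 and the RNA-binding protein LARP1. Some ribosomal proteins also bind the p53 regulator MDM2 when ribosome assembly is disturbed. In a rapidly growing cancer line the genes are among the most strongly transcribed. Human genomes carry many processed pseudogenes of them, copies that can take up or share reads with the parent gene.

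The start sites carry the motif by which the family is recognised, so 30-base windows of RefSeq (GRCh38.p14) around the annotated start are shown for genes that the results turn on, 15 bases before the start and 15 from it. Capitals mark a run of at least 5 pyrimidines that begins with C within 10 bases of the start and has a base other than C or T before it.
RPLP1 at chr15:69452803-69452832, + strand: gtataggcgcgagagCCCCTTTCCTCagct
RPL11 at chr1:23691791-23691820, + strand: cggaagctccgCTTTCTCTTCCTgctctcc
RPS6 at chr9:19380222-19380251, - strand: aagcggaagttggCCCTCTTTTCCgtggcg
RPL22 at chr1:6199581-6199610, - strand: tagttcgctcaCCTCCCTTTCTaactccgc
RPL22L1 at chr3:170870181-170870210, - strand: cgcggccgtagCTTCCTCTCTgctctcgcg
RPL3 at chr22:39319609-39319638, - strand: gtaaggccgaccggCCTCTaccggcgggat
RPL37A at chr2:216498829-216498858, + strand: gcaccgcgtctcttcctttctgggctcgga
RPL38 at chr17:74203663-74203692, + strand: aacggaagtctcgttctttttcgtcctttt

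The first 6 windows hold such a run. Those of RPL37A and RPL38 do not under this definition, since the pyrimidine runs near their starts begin with T ahead of the start. At the annotated start itself, both have a C followed by pyrimidines, which is the TOP form. The lack of capitals in these windows is therefore not a lack of the motif. Promoter sequences were given for 64 of the 79 genes, in 79 entries because some genes have several starts. A run of at least 5 bases was found in 59.5% of these entries against 24.9% of all 35116 promoters, and one of at least 8 bases in 48.1% against 6.31%. With any base allowed before the run, a looser definition chosen after the stricter shares had been seen, the shares at 5 bases were 83.5% and 33.5%. On either strand, CCGGAAG was in 32.9% of the entries against 10.3% of all promoters, GGGCGG in 54.4% against 45.0%, AAGATGGC in 10.1% against 2.89%, and TATAAA in 7.59% against 11.5%. A match is a description of the letters and not a site of binding.

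The levels of the genes spanned a wide range. By the deposited FPKM, which divide by a gene length, the mean in si-NC ran from 0.664 for RPS28 to 334 for RPL11. The median was 40.2. That length does not match the annotated exons of every gene. RPL13 was at 339 CPM and 22.3 FPKM in si-NC, which takes a divisor longer than its 6172 annotated exon bases. RPL4 had the highest CPM in si-NC at 1493 but was at 138 FPKM. FPKM levels and ranks of different genes, here and below, therefore depend on the divisor used. The 5 highest by FPKM were RPL11, RPS12, RPS4X, RPS6 and RPL5. RPL11 and RPL5, which join the 5S ribosomal RNA in a particle that can bind MDM2, were at 334 ± 45.9 and 178 ± 2.33 FPKM (SD, n = 3). RPS6, the small-subunit protein phosphorylated by S6 kinase, was at 193 ± 34.2 FPKM, and its value did not differ from that of RPL5 beyond this spread. The 5 lowest were RPS28, RPL21, RPL39, RPL36A and RPL9, at 0.664 ± 0.127, 4.22 ± 0.293, 4.48 ± 0.299, 5.87 ± 0.444 and 10.2 ± 0.501 FPKM. RPL21 and RPL39 did not differ beyond their spread.

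Among the proteins of the P stalk, which recruits elongation factors, RPLP1 was at 71.9 ± 1.40 FPKM in si-NC, RPLP0 at 65.2 ± 4.88 and RPLP2 at 51.3 ± 2.26. RPSA, a small-subunit protein first described as a laminin receptor, was at 117 ± 2.42 FPKM. RPS27A and FAU, which are made as fusions with ubiquitin and a ubiquitin-like protein, were at 17.4 ± 0.822 and 19.2 ± 1.47 FPKM, and RPL41, which encodes a very short peptide, was at 15.8 ± 0.192 FPKM. FAU shares 398 exon bases with SYVN1 on the same strand, and RPS13 shares 58 with PIK3C2A, RPS10 shares 929 with RPS10-NUDT3 and RPL17 shares 611 with RPL17-C18orf32, so the split of reads between these genes is uncertain.

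Reads assigned to pseudogenes bear on these levels. GENCODE 29 annotates 1134 pseudogenes of the 79 genes, 496 of them had counts, and their counts came to between 45.6% and 48.3% of those of the genes in each library. For 18 genes the pseudogenes held more counts than the gene. RPS28 had 291 counts over the 6 libraries and RPS28P7 had 14626, while RPL21 had 1846 and its pseudogenes 73217. With pseudogene counts added to the parent, the range narrowed from 502-fold to 51.5-fold, RPS28 moved to 31.8 FPKM and RPL21 to 178 FPKM. At the other end RPL11 stayed the highest at 334 FPKM, with 25 pseudogene counts in all, and RPS12 the next. RPL12 moved from 138 to 293 FPKM and RPS2 from 64.1 to 248 FPKM, which put both among the 5 highest in place of RPS6 and RPL5. For 29 genes the pseudogenes held under 1% of the gene's counts, RPLP1 among them, and 7 genes had none.

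In si-SLCO1B3 against si-NC, no ribosomal protein gene passed the test. Of 79 genes, 0 had an adjusted p under 0.05, as did 0.0% of the 16414 genes tested, and 1 had an unadjusted p under 0.05 by edgeR, against 4.36% of all genes. DESeq2 and limma-voom also called 0. The count of 1 became 3 when si-NC library 3 or si-SLCO1B3 library 3 was left out, and 2 when si-NC library 5 was. The shares of all genes with those libraries left out are not given here. The fitted log2 fold changes lay between -0.36 and 0.37, with a median of 0.0375 against 0.0049 over all genes tested. Fitted values were higher in si-SLCO1B3 for 61 genes (77.2%) and lower for 18, against 51.0% higher among all genes tested. The 95% intervals of all 79 lay within a log2 change of 1 in either direction, and those of 68 within 0.5, so larger changes were outside the interval for these genes. The median was 0.0658 for the small subunit and 0.0322 for the large.

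The gene with the lowest unadjusted p was RPL37A, a zinc-binding protein of the large subunit. It was at 308, 296 and 361 CPM in control libraries 1, 3 and 5 and at 239, 276 and 235 CPM in the silenced libraries. All silenced libraries were below all control libraries, and the log2 fold change was -0.36 (95% interval -0.64 to -0.09) with an unadjusted p of 0.0166 and an adjusted p of 0.9998 by edgeR. For 4 genes, RPL13, RPS15 and RPS27 among them, every si-SLCO1B3 library was higher than any si-NC library. These 4 are 5.06% of the genes, against 5.01% of all genes tested, and RPL37A alone was separated in the other direction, against 5.5%.

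RPLP1 had the highest fold change. It was at 301, 305 and 328 CPM in control libraries 1, 3 and 5 and at 503, 301 and 406 CPM in the silenced libraries. Library 3 of the silenced group sat with the controls, so the groups overlapped, and the log2 fold change was 0.37 (95% interval -0.04 to 0.79), or 0.18 without si-SLCO1B3 library 1. The log2 fold changes of the other P stalk proteins were 0.01 for RPLP0, 0.01 for RPLP2 and 0.11 for RPL12 at the base of the stalk, and the difference from RPLP1 was not tested.

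Other high log2 fold changes were those of RPL29 at 0.26, RPL38 at 0.22 and RPL13 at 0.19, each with an interval that spans 0. At the low end RPL3, which lines the peptidyl transferase centre, was at -0.19, RPS3A at -0.19, RPL35A at -0.17 and RPL4 at -0.16, each with an interval that spans 0. With pseudogene counts added RPL3 was at -0.12 and RPS3A at -0.03. RPL35A turned to 0.02 without si-NC library 5 or without si-SLCO1B3 library 3. The values of RPL3, RPS3A and RPL4 came down to -0.07, -0.0001 and -0.06 without si-SLCO1B3 library 5, while RPL3 was at -0.05 without si-NC library 3 and RPL4 at -0.05 without si-NC library 5.

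**Figure D1:**
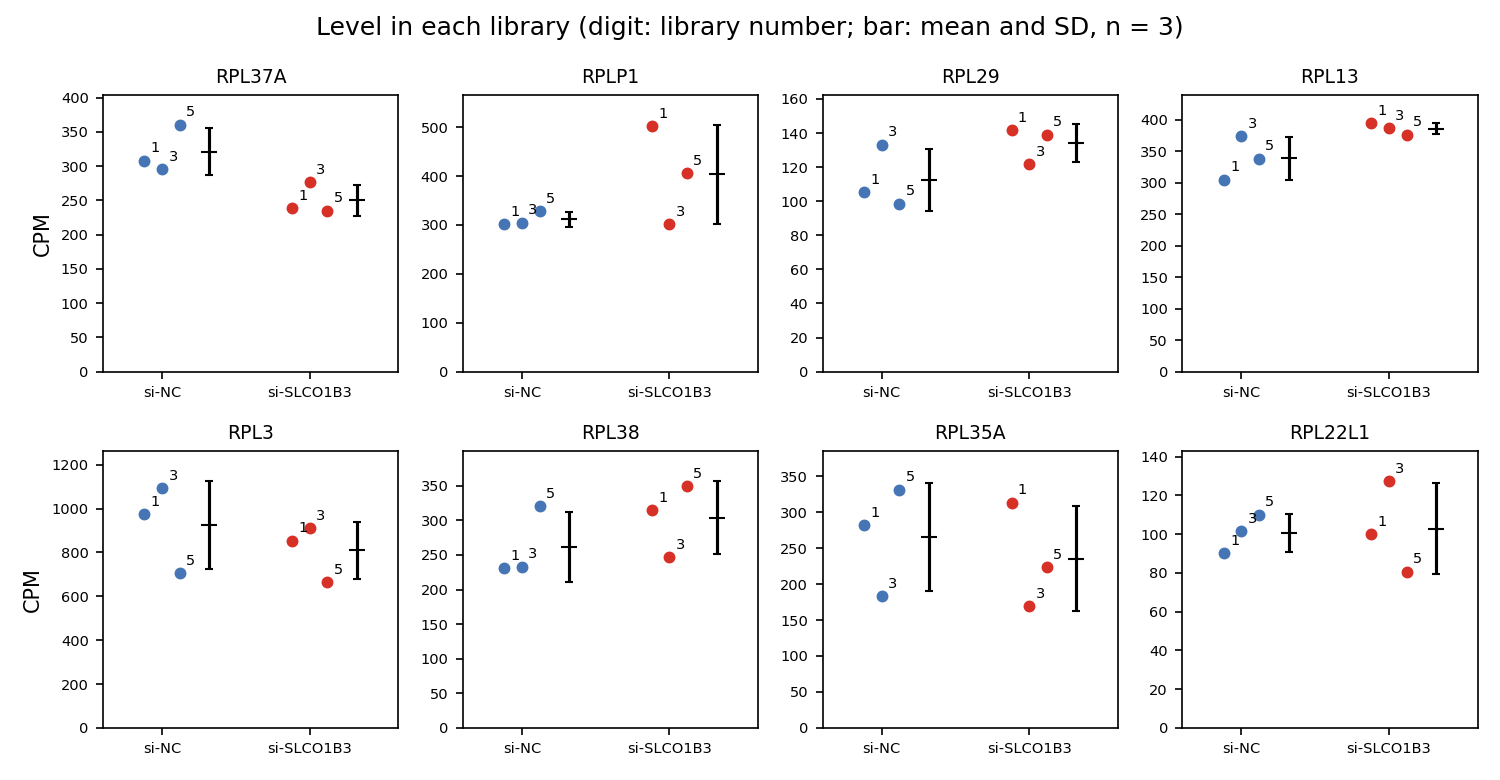
CPM (vertical, from 0) of 8 genes in each library, with si-NC in blue, si-SLCO1B3 in red, the library number beside each point, and a bar for mean and SD (n = 3). RPL37A and RPL13 have separated groups, whereas the si-SLCO1B3 values of RPLP1 run from 301 to 503.

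The direction rested on which libraries were compared. Within number 1, the median log2 difference, silenced minus control, was 0.156, with 65 genes higher and 14 lower. Within number 3 it was -0.0465, with 28 higher and 51 lower, and within number 5 it was 0.0415, with 52 higher and 27 lower. Only 14 genes were higher in all 3 numbers and 4 (RPL3, RPL37A, RPS18 and RPS24) lower in all 3, which is 17.7% and 5.06% of the genes against 16.2% and 16.0% of all genes tested. Leaving out si-NC library 5 or si-SLCO1B3 library 3 raised the median log2 fold change to 0.098 or 0.087, and leaving out si-NC library 1 or si-SLCO1B3 library 5 lowered it to 0.0169 or 0.0225. Without si-SLCO1B3 library 5, 44 genes had higher fitted values.

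**Figure D2:**
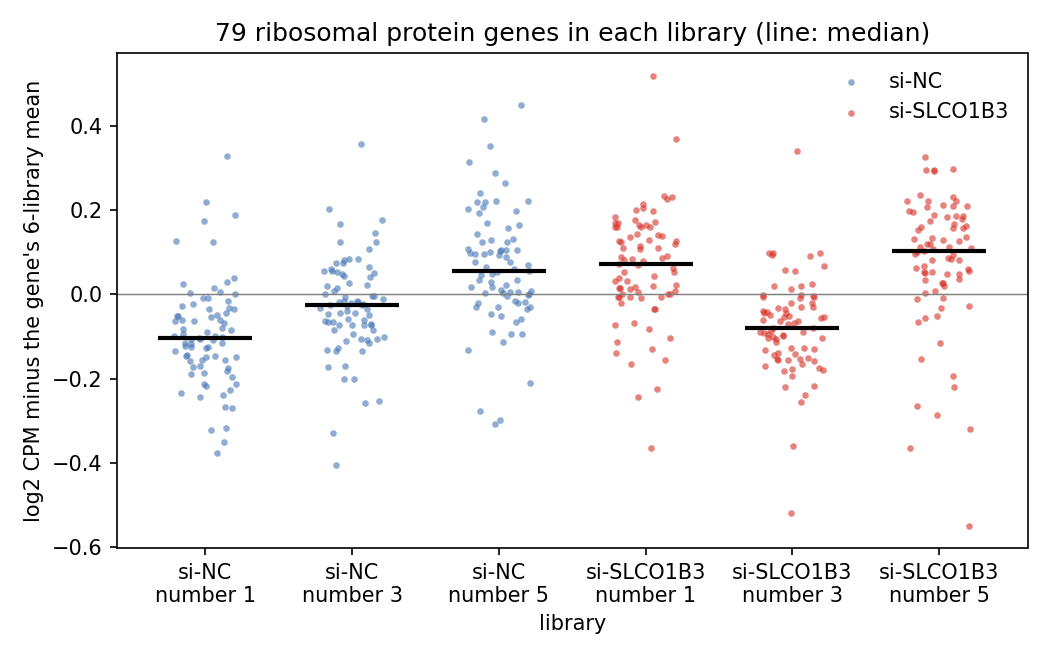
Log2 CPM of each of the 79 genes minus its mean over 6 libraries (vertical), by library (horizontal), with 1 point per gene, si-NC in blue, si-SLCO1B3 in red and a black line at the median. The medians are -0.103, -0.0243 and 0.0567 in si-NC 1, 3 and 5 and 0.0715, -0.0795 and 0.103 in si-SLCO1B3.

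As a share of all counts the genes took 2.46%, 2.62% and 2.61% in si-NC libraries 1, 3 and 5 and 2.72%, 2.50% and 2.60% in si-SLCO1B3. The means were 2.56% ± 0.088 and 2.61% ± 0.112 (SD, n = 3), a difference smaller than either spread. The share is bounded by the way reads were assigned, since pseudogene counts added to it gave 3.75% and 3.84%.

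Library number 5 was set against numbers 1 and 3 with the siRNA group in the model. By edgeR no ribosomal protein gene had an adjusted p under 0.05, against 0.0426% of all genes tested, whereas DESeq2 called 2, RPL3 and RPS24. The share of all genes that DESeq2 called is not given here, so its 2 calls cannot be read against it. By edgeR 15 of 79 (19.0%) had an unadjusted p under 0.05, against 26.1% of all genes. Of these 15, 13 were higher in number 5. The median log2 difference was 0.112 against -0.0051 over all genes tested. Higher fitted values were found for 65 genes (82.3%) and lower for 14, against 49.4% higher among all genes tested. With scaling by library totals only, the median of the genes was 0.0456, that of all genes -0.0714, and 48 genes were higher and 31 lower, so the split depends on the scaling. The distance between the genes' median and the median of all genes was 0.117 under both. The count of 15 fell to 7 when si-SLCO1B3 library 3 was left out, and it rose with another library left out. The shares of all genes in those fits are not given here, so a move of these genes cannot be told from a move of all genes.

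Both number 5 libraries were above the other 4 for 22 genes (27.8%), against 18.7% of all genes tested, and below them for 3 genes (RPL3, RPS3A and RPL23; 3.8%), against 19.9%. RPL3 was at 974 and 1094 CPM in si-NC libraries 1 and 3 and at 704 in library 5, and at 854, 912 and 663 CPM in si-SLCO1B3 libraries 1, 3 and 5. Library 5 was the lowest in both groups, with a log2 difference of -0.48 ± 0.08 (SE) and an adjusted p of 0.0758 by edgeR and 0.0029 by DESeq2. RPS24, mutated in some families with Diamond-Blackfan anemia, was at 526, 517 and 639 CPM in the controls and at 489, 501 and 639 CPM in the silenced libraries, a log2 difference of 0.33 ± 0.08 (SE) with an adjusted p of 0.0935 by edgeR and 0.0431 by DESeq2.

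RPS4X, the X-linked small-subunit gene, was at 959, 942 and 1164 CPM in the controls and 941, 945 and 1187 CPM in the silenced libraries, so both number 5 libraries were above the other 4. RPL38, whose loss in mice disturbs patterning of the skeleton, had the largest positive log2 difference at 0.39, followed by RPS19 at 0.38, RPS13 at 0.37, RPS28 at 0.35 and RPS24. RPL24, FAU and RPL22 were at 0.30, 0.32 and 0.25. RPS28 had few counts and its groups overlapped. The lowest after RPL3 were RPS3A at -0.42, RPL13A at -0.24, RPL22L1 at -0.13 and RPL11 at -0.13. The direction of these last 3 rested on 1 library, since RPL13A was at 0.0062 and RPL11 at 0.03 without si-NC library 5, and RPL22L1 at 0.20 without si-SLCO1B3 library 5. RPS3A and RPL13A had more pseudogene than gene counts, and with pseudogene counts added the value of RPS3A turned to 0.08.

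**Figure D3:**
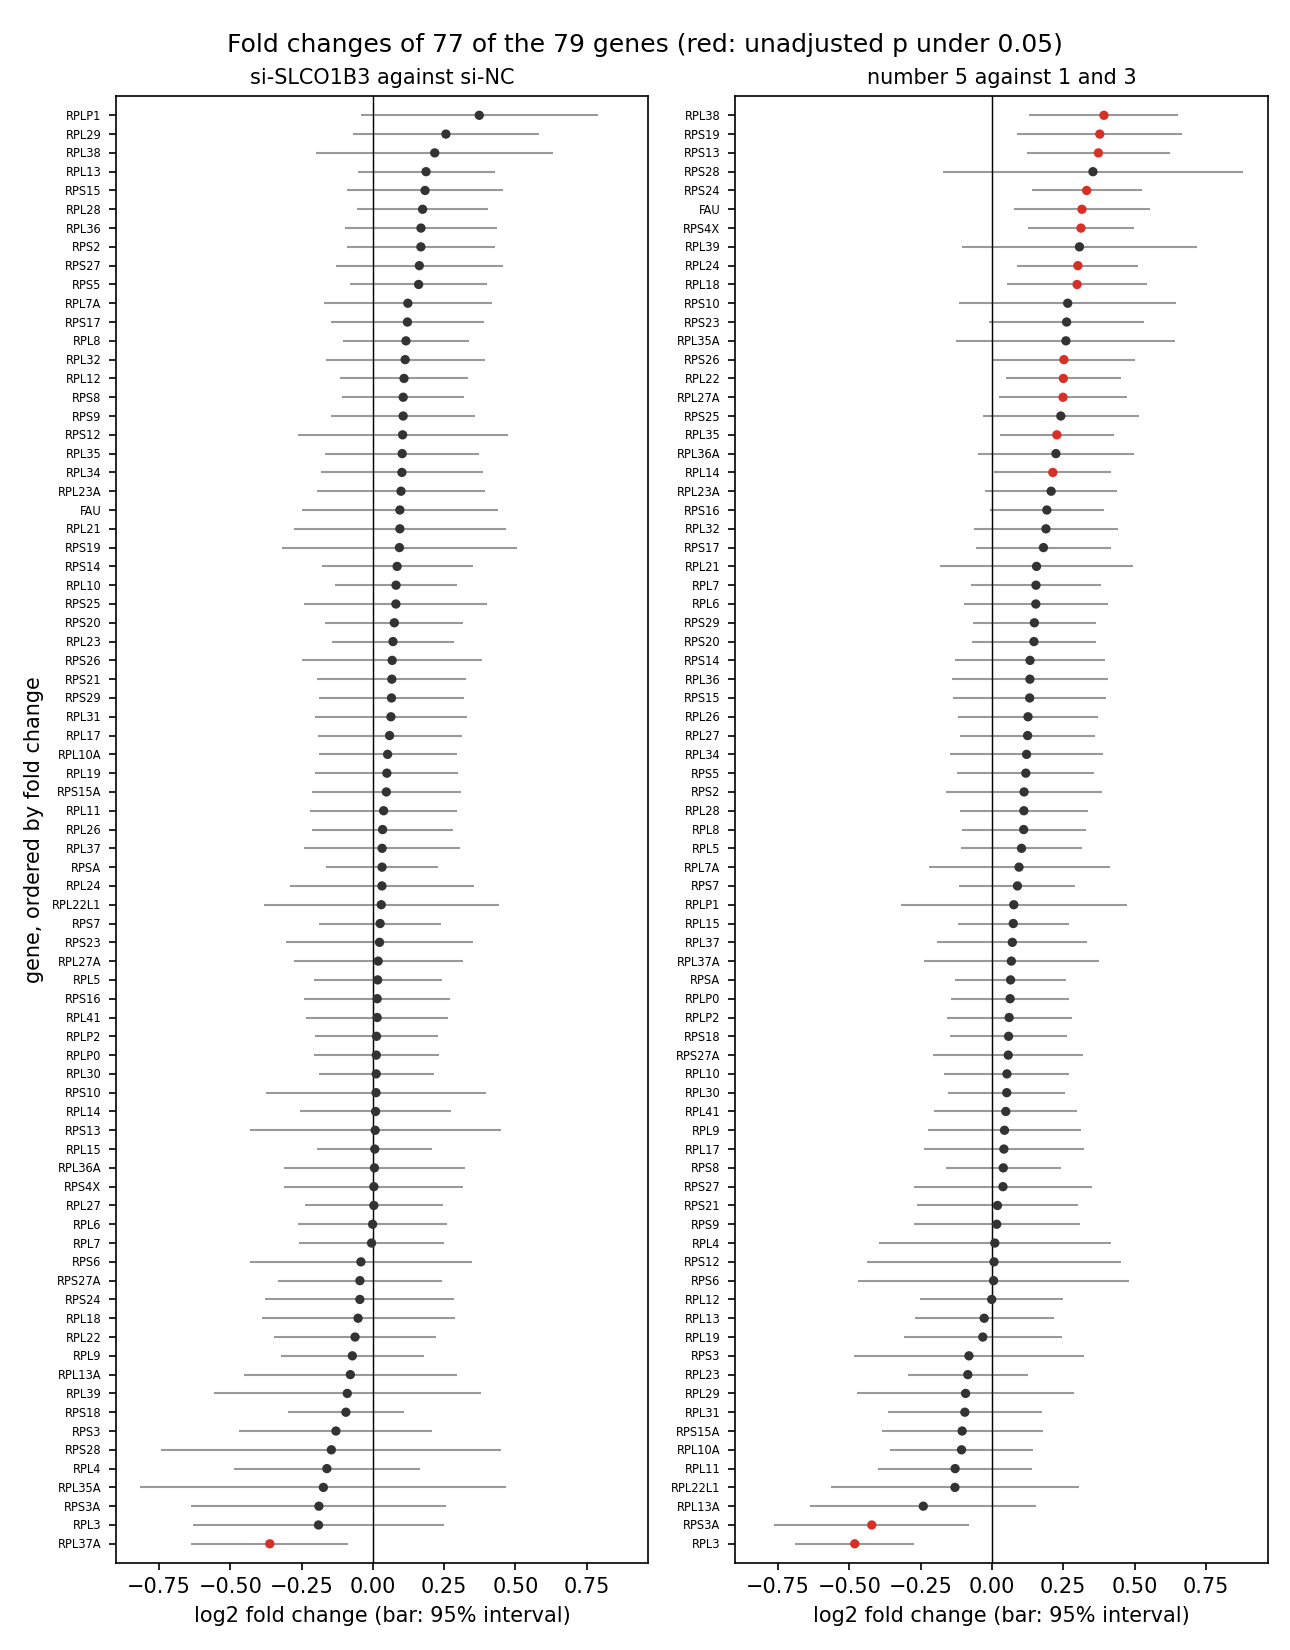
Fitted log2 fold change (horizontal) of 77 of the 79 genes (vertical, ordered within each panel) with 95% intervals, for si-SLCO1B3 against si-NC (left) and library number 5 against 1 and 3 (right), with red points for an unadjusted p under 0.05. There are 1 red point on the left and 15 on the right.

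Numbers 3 and 1 differed less. In 2 of the 79 genes (2.53%) the unadjusted p was under 0.05 by edgeR, against 3.2% of all genes tested. In number 3, 25 of the 79 (31.6%) were higher, against 50.1% of all genes tested, and the median log2 difference of the 79 was -0.0415. The 2 genes were RPL35A, at 282, 183 and 331 CPM in si-NC libraries 1, 3 and 5 and 313, 169 and 224 CPM in the silenced libraries, with a log2 difference of -0.76, and RPS13 at 0.33. RPL35A was lowest in library 3 of both groups.

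Across the 6 libraries, the median pairwise correlation of log2 CPM among the genes was 0.421, a description over 6 libraries that share depth and scaling, and was 0.488 within the small subunit and 0.367 within the large. It was 0.685 among 74 ribosome biogenesis factors, 0.465 among 78 mitochondrial ribosomal proteins and 0.0685 among 20 other TOP mRNAs.

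The paralogs RPL22 and RPL22L1 can substitute for each other in the ribosome. The ratio of their FPKM was 1.84, 1.62 and 1.71 in si-NC libraries 1, 3 and 5 and 1.53, 1.20 and 2.36 in si-SLCO1B3. The silenced libraries spanned a wider range on both sides of the controls. Pseudogenes of RPL22 held 115% of its counts and RPL22L1 had none, and with them added the ratio was 3.85, 3.33 and 3.83 in the controls and 3.38, 2.61 and 4.99 in the silenced libraries, an alternative chosen after seeing the data. Each gene alone had an interval around 0, with log2 fold changes of -0.06 and 0.03.

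Of the other lists of genes in the pathway, 0 genes had an adjusted p under 0.05 by edgeR in si-SLCO1B3 against si-NC. Among all genes tested, 51.0% had higher fitted values in this comparison. Of 7 MDM2 binders 6 had higher fitted values and of 19 Diamond-Blackfan anemia genes 15 did. Each list had 0 genes at an unadjusted p under 0.05, against 4.36% of all genes tested. Both lists are part of the 79 ribosomal protein genes, of which 61 were higher, so these counts repeat values given above. Among 74 ribosome biogenesis factors 36 were higher and 38 lower, with a median of -0.0031 and 2 (2.7%) at an unadjusted p under 0.05, both lower. Their extremes were DDX21, a nucleolar helicase, at -0.36 and NOLC1 at 0.40. Of 20 other TOP mRNAs 14 were higher, from EIF3H at -0.15 to the elongation factor gene EEF1D at 0.51, the 1 gene of that list at an unadjusted p under 0.05. Among 16 genes of mTORC1 and LARP1, 7 were higher, from EIF4EBP2 at -0.60 to AKT1S1 at 0.83. In that list 3 genes (18.8%) had an unadjusted p under 0.05, EIF4EBP2 and RPS6KB1 lower and AKT1S1 higher, and the groups did not overlap for 4 genes higher and 3 lower in si-SLCO1B3, against 5.01% and 5.5% of all genes tested. Of 78 mitochondrial ribosomal proteins 48 were higher, from MRPL30 at -0.50 to MRPS2 at 0.40, with 0 at an unadjusted p under 0.05. MRPS2 turned to -0.08 without si-SLCO1B3 library 5. Of 6 relatives outside the rule 4 were higher, from RPL7L1 at -0.12, which turned to 0.17 without si-NC library 3, to RPL26L1 at 0.52, the 1 at an unadjusted p under 0.05.

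In number 5 against 1 and 3 the biogenesis factors had 70 of 74 higher fitted values and a median log2 difference of 0.36, larger than the 0.112 of the ribosomal protein genes. Of these, 49 were higher and 1 lower at an unadjusted p under 0.05, against 26.1% of all genes in either direction. The mitochondrial ribosomal proteins had 68 of 78 higher and a median of 0.20, and held the single gene of these lists with an adjusted p under 0.05 by edgeR, MRPL34, at a log2 difference of -2.39 (adjusted p = 0.0261). The other TOP mRNAs had 12 of 20 higher and a median of 0.0073. Higher fitted values were found for 16 of the 19 Diamond-Blackfan anemia genes and 4 of the 7 MDM2 binders. Both lists are part of the 79 ribosomal protein genes. The same held for 13 of the 16 genes of mTORC1 and LARP1 and 5 of the 6 relatives outside the rule. Of all genes tested, 49.4% had higher fitted values. In the same comparison all 5 tested markers of other cells had higher fitted values, with a median log2 difference of 0.37 and VIM at an unadjusted p under 0.05. Of 6 epithelial markers 4 had an unadjusted p under 0.05, KRT8 at 0.51, KRT18 at 0.51, CDX2 at 0.42 and CDH1 at -0.45. Their part in the differences by library number was not tested.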

How the data were processed

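RNA-seq of 6 HCT116 libraries was deposited as 1 table of counts per gene, not normalized, and FPKM values that the authors made from them. The submitters' processing notes name CASAVA 1.8, fastp 0.19.5, HISAT2 2.1.0, edgeR and GRCh38 (hg38). The counting program is not given in the sources used here. Symbols came from GENCODE 29, which holds 99.549% of the genes. The paper calls the assay next-generation sequencing in some places and a microarray in others. The deposited values are counts.

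Tests on the counts used edgeR 4.0.16 under R 4.3.3: scaling by TMM, the filterByExpr rule (minimum count 10, minimum total 15), the quasi-likelihood F test and Benjamini-Hochberg adjustment over 16414 genes. CPM are TMM-scaled. All 79 genes passed the filter. Alternatives used limma 3.58.1 and DESeq2 1.42.0, and log2 of FPKM plus 1. Tables and figures were made in Python 3.11.15 with numpy 2.4.6, pandas 2.3.3 and matplotlib 3.10.9. The fits were tested on simulated data. Depth of 17290442 to 21278903 counts gave a median counting error of 1.47% per gene and library, and 16.7% at the smallest count of 36. Pyrimidine runs at start sites were counted under a definition that was loosened once after its shares had been seen, and both definitions are given.

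The genes and lists were chosen with earlier results of these data known. Genes were named by rule: the 5 largest rises and falls per comparison, up to 10 genes by p, the 5 highest and lowest by FPKM, a list of well-known members, and the extremes of each other list. Some genes that the rule names are not reported here.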

Additional observations from a re-analysis of the deposited data

How the results depend on the processing

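Of 35 gene results, 350 values under other settings included 1 of opposite sign, RPS3A in number 5 against 1 and 3 at 0.0819 with pseudogene counts added, and 210 values with a library left out included 7. Those were RPL35A (range -0.434 to 0.0195, with 0.0193 as the second value above 0), RPL7L1 (-0.379 to 0.166) and MRPS2 (-0.0785 to 0.595) in si-SLCO1B3 against si-NC, and RPL11 (-0.283 to 0.0272), RPL13A (-0.494 to 0.0062) and RPL22L1 (-0.478 to 0.200) in number 5 against 1 and 3. The count at an unadjusted p under 0.05 in si-SLCO1B3 against si-NC was 2 with limma on log2 FPKM, 2 with library totals only, and 1 to 3 with a library left out. In number 5 against 1 and 3 it was 9 with limma on log2 FPKM, 9 with library totals only, and 6 to 22 with a library left out. There DESeq2 called 2 genes, RPL3 (adjusted p = 0.0029) and RPS24 (adjusted p = 0.0431). Shares of all genes under these other settings are not given here, so the counts cannot be read against them. The share of counts in si-NC and si-SLCO1B3 was 2.75% and 2.80% of protein-coding counts, and 3.75% and 3.84% with pseudogene counts. The cause of these differences was not tested. The median log2 fold change stayed between 0.0169 and 0.098 with a library left out. The promoter share of 59.5% became 83.5% under the looser run, which was chosen after seeing the data.

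Same-numbered libraries correlated across genes in their deviations from the group means at 0.095, 0.152 and 0.394 for numbers 1, 3 and 5. Because si-SLCO1B3 library 1 correlated best with si-NC library 3, the numbers were not taken to pair the libraries. That reason does not cover number 5, whose libraries correlated with differently numbered ones at -0.135 to -0.324. What the number 5 libraries share thus stays in the spread of the main silenced comparison. Deviations from a group mean cancel out within that group, so these correlations depend on each other. They cannot settle whether the numbers pair the libraries. A block for the number in the silenced comparison gave 2 genes at an unadjusted p under 0.05, 0 called, and a median log2 fold change of 0.0425.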
